A study of Mus musculus with 8 samples.

Results

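The cytosolic ribosomal protein genes were examined in livers of METTL3-HKD and METTL3-Flox mice. They were taken from the deposited table as the protein-coding genes whose symbol starts with Rpl, Rplp or Rps followed by a number, together with Rpsa and without the Rps6k kinases. This gave 94 of the 54532 genes listed, of which 59 carry a large-subunit symbol and 35 a small-subunit symbol. Of the 94 genes, 8 have a symbol with the ending -ps followed by a number, which in mouse nomenclature marks a pseudogene, although the table lists them as protein-coding. The data are RNA sequencing of liver tissue from 4 METTL3-HKD and 4 METTL3-Flox mice. All samples were taken after 1 h of warm ischemia of part of the liver and 6 h of reperfusion. METTL3, the catalytic subunit of the complex that writes the RNA mark m6A, was targeted by loxP sites around exon 4. METTL3-HKD mice (METTL3 flox/-; Alb-iCre) were described as heterozygous and carry iCre under the albumin promoter, which is active in hepatocytes. The deletion was thus aimed at hepatocytes, and the gene in other liver cells was not measured separately here. METTL3-Flox mice (METTL3 flox/flox) came from the same litters and carry no Cre. METTL3-HKD thus models a reduction rather than a loss of METTL3, and the ages of these 8 mice are not given in the sources used here. No sham-operated liver was analysed here, so each comparison is between genotypes after injury.

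The cytosolic ribosome is built from ribosomal RNA and a large set of ribosomal proteins, divided between a small and a large subunit and mostly present once per ribosome. Their genes are transcribed at high levels in nearly every cell, and the mRNAs are known for a run of pyrimidines that begins with a C at the very first base, the 5′ terminal oligopyrimidine (TOP) motif. Through this motif, mTOR signalling sets their translation together as a family, by way of factors such as LARP1. Hepatocytes, which secrete most plasma proteins, are rich in ribosomes.

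The start sites of these genes are shown first because the TOP motif is the feature that the family shares. Promoter windows were given by RefSeq (GRCm38.p6) for 66 of the 94 genes. A C at the annotated start followed by at least 4 pyrimidines was present in 14 of them (21.2%), compared with 3.01% of all 27025 promoters. Of the other lists used below, it was present in 0 of 69 mitochondrial ribosomal protein genes, 1 of 75 ribosome biogenesis factors and 2 of 29 translation factors. When the motif was allowed to lie within 10 bases of the annotated start, the shares were 60.6% of the ribosomal protein genes and 34.4% of all promoters. The annotated start may be a few bases from the base at which transcription begins, so an absent match says only that these letters are not in this window. In the sequences below, 20 bases before and 20 bases from the annotated start are printed, and capitals mark the pyrimidine run that begins at the start.
Rps6, chr4:86857348-86857387, minus strand: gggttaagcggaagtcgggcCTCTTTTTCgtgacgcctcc
Rps18, chr17:33955646-33955685, minus strand: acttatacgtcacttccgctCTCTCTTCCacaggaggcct
Rpl38, chr11:114668560-114668599, plus strand: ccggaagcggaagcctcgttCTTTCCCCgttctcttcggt
Rpl35, chr2:39005112-39005151, minus strand: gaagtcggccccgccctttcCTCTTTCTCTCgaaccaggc
Rpl15, chr14:18270967-18271006, minus strand: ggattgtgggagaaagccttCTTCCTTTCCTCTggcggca
Rplp2, chr7:141447631-141447670, plus strand: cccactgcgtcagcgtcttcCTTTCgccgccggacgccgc
The run was 9 bases long in Rps6 and Rps18, 8 in Rpl38, 11 in Rpl35, 13 in Rpl15 and 5 in Rplp2.

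Further motifs were searched on both strands of the same windows. The motif CCGGAAG, the core recognised by ETS factors such as GABP, was present in 39.4% of the ribosomal protein windows and in 9.93% of all windows. The Sp1-type motif GGGCGG was present in 62.1% and 38.2%, and ATGGCGG, which contains the core of the YY1 motif, in 16.7% and 4.69%. In contrast, TATAAA was present in 10.6% and 15.7%. These shares are not particular to the cytosolic ribosome, since CCGGAAG was present in 37.7% of the mitochondrial ribosomal protein windows and 40.0% of those of biogenesis factors. Each motif was searched by itself, whether or not it overlapped another, and a match is a description of letters only.

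The libraries held 15861245 to 18434488 reads on genes. Mettl3 itself, at chr14:52294841-52305128 of GRCm38, was at 1.56, 1.39, 1.17 and 1.20 FPKM (read fragments per length of the gene and depth of the library) in the METTL3-HKD livers and at 1.84, 1.16, 1.45 and 1.54 FPKM in the METTL3-Flox livers. The groups overlapped, and the log2 fold change was -0.16 ± 0.17 (SE; limma, Benjamini-Hochberg adjusted p = 0.556). A gene-level value does not isolate exon 4, the tissue also holds cells other than hepatocytes, and Tox4 overlaps the gene, so this value is a weak check of the labels. Of the cell type markers, the 8 hepatocyte genes had 0 called, with sums of 22639 to 33304 FPKM in METTL3-HKD and 29295 to 33707 FPKM in METTL3-Flox. Their log2 fold changes were negative for all 8, with a median of -0.37. After scaling to the reads on genes, 6 of the 8 were negative and the median was -0.15. Neutrophil markers were higher in METTL3-HKD for 7 of 8 genes (sums 941 to 2471 and 645 to 2338 FPKM), cholangiocyte markers for 5 of 6 (119 to 370 and 52.6 to 77.7 FPKM) and erythroid markers for 4 of 5 tested (185 to 597 and 48.2 to 107 FPKM). Among all genes tested, 9.05% were called higher. The median log2 fold change of the neutrophil markers was 3.95. The 1 neutrophil gene and the 1 erythroid gene not called had log2 fold changes of -0.51 and -0.98. Macrophage markers were lower for 4 of 8, against 6.63% of all genes (83.2 to 175 and 164 to 380 FPKM). After scaling to the reads on genes, 0 macrophage markers were called. Of the lymphocyte (6 tested), endothelial (6) and stellate (6) markers, 0, 0 and 1 were called, the last lower, as was 1 of 13 mitochondrially encoded mRNAs. The stellate gene missed the threshold after scaling to the reads on genes. In whole tissue, fewer cells of a type and less RNA per cell cannot be told apart.

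The listed levels of the ribosomal protein genes spanned a wide range. On the FPKM scale, which is per length, 45 of the 94 genes had a mean above 100 FPKM over the 8 livers and 14 were under 10 FPKM. The low genes include some with -ps symbols, and Rps10 and Rpl21, whose copies held most of the reads. Listed lengths run from 354 to 6270 bases. Among genes averaging 1 FPKM or more, the rank correlation with listed length was -0.39 for FPKM and 0.10 for reads per coding base. The order by FPKM is thus in part an order by listed length. Rplp1, a protein of the stalk that contacts elongation factors, was highest at 996 FPKM, followed by Rps3a1, Rplp0, Rpl36 and Rpl4. At the other end, Rpl10l, Rpl36-ps4 and Rpl13a-ps1 were listed at 0 in all 8 livers. Rpl39l, the testis-enriched relative of Rpl39, was above 0 in 3 livers (0.239, 0.0651 and 0.0745 FPKM), and Rpl9-ps1 was above 0 in METTL3-HKD liver 3 alone (0.0961 FPKM). These 5 genes did not reach the mean of 0.1 FPKM required for testing, which left 89. Another 4 had a mean under 1 FPKM, and the spread between livers below is given over the other 85 genes.

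**Figure D1:**
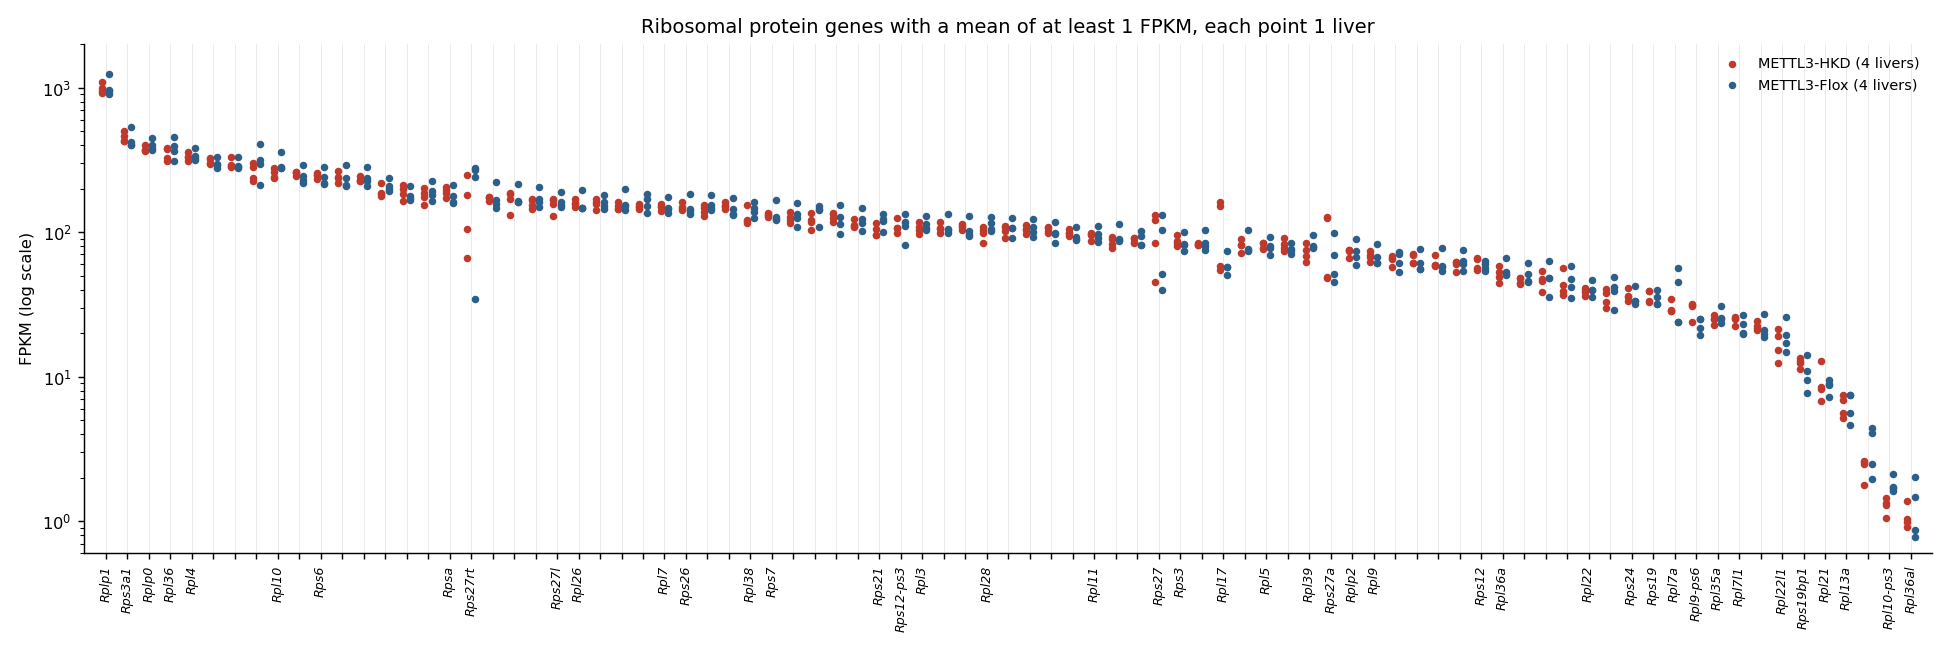
FPKM (log axis) of each ribosomal protein gene that averaged 1 FPKM or more, ordered by mean, with 1 point per METTL3-HKD (red) and METTL3-Flox (blue) liver, and names under the axis for genes chosen for description. The points of both groups lie together for most genes, whereas Rps27rt, Rps27, Rpl17, Rps27a and Rpl7a are spread widely within a group.

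No ribosomal protein gene differed between the genotypes at the threshold used. Of the 89 genes tested, 0 were higher and 0 were lower in METTL3-HKD livers at an adjusted p under 0.05 (limma on log2(FPKM + 0.1), Benjamini-Hochberg over all genes), whereas 15.7% of all 16645 genes tested were called, 9.05% higher and 6.63% lower. At an unadjusted p under 0.05, there were 3 ribosomal protein genes, against 31.9% of all genes, and voom on reads rebuilt from the FPKM called 0 and gave 2 at an unadjusted p under 0.05. The 3 genes were Rpl10-ps3, Rpl9-ps6 and Rpl3l, the last of which has no valid test, as described below. The median log2 fold change was -0.02 over the ribosomal protein genes and -0.00 over all genes, and 37 values were positive and 52 negative, where 49.7% of all genes were positive. The p-values and intervals rest on the spread between these 8 livers, with the spread of each gene drawn toward that of genes of like level. A p that misses the threshold does not show that the levels were equal, so the intervals are given as well. The 95% interval of the log2 fold change lay within 1 log2 unit of 0 for 83 of the 89 genes and within 0.5 for 71. Large-subunit genes (54 tested) and small-subunit genes (35 tested) had medians of -0.03 and -0.00.

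**Figure D2:**
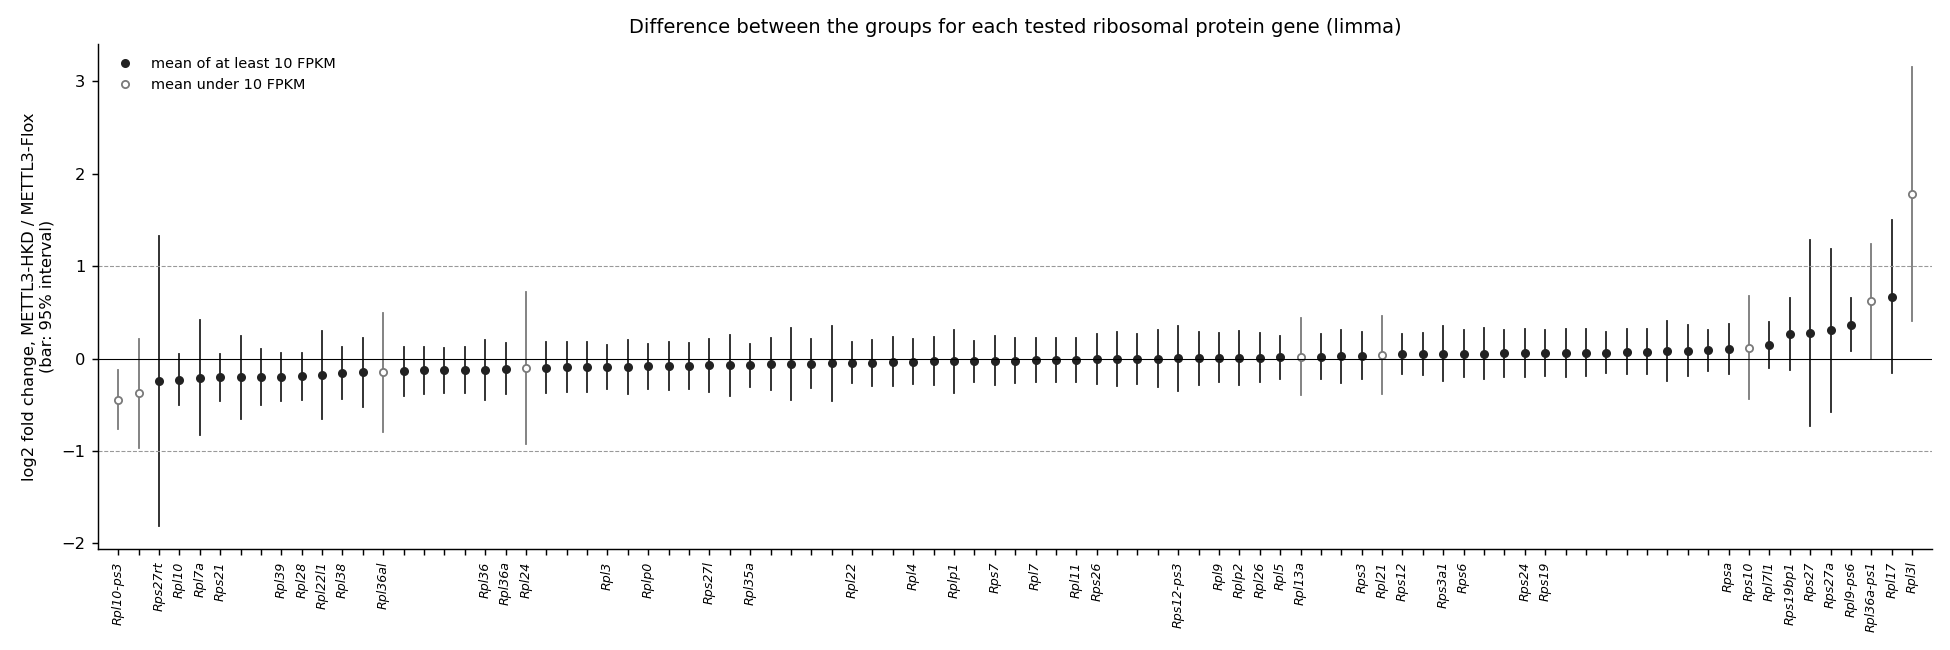
Log2 fold change (METTL3-HKD over METTL3-Flox, points) with its 95% interval (bars) for the 89 tested ribosomal protein genes, ordered by value, with open points for genes under 10 FPKM and names for genes chosen for description. Most intervals cross 0 and stay within 1 log2 unit, and the widest belong to Rps27rt, Rps27, Rps27a, Rpl17 and genes at low level.

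The stalk of the large subunit is formed by Rplp0, Rplp1 and Rplp2 and recruits the elongation factors. Rplp0 was at 363, 368, 370 and 401 FPKM in METTL3-HKD livers 1, 2, 3 and 4, and at 447, 367, 380 and 402 FPKM in METTL3-Flox livers, also in the order of their numbers. Rplp1 was at 942, 911, 986 and 1094 FPKM in METTL3-HKD and at 1234, 960, 901 and 939 FPKM in METTL3-Flox. The groups overlapped for both, with METTL3-Flox liver 1 above every other liver, and the log2 fold changes were -0.09 ± 0.11 and -0.03 ± 0.15 (SE; limma adjusted p = 0.626 and 0.920). Rplp2 lay between 59.5 and 89.9 FPKM over the 8 livers with a log2 fold change of 0.01 ± 0.13 (limma adjusted p = 0.973).

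Rpl5 and Rpl11 bind 5S ribosomal RNA and, when not built into ribosomes, are known to bind the p53 ligase Mdm2. Rpl5 was at 84.7, 77.7, 76.9 and 83.4 FPKM in METTL3-HKD and at 92.9, 77.3, 69.99 and 80.6 FPKM in METTL3-Flox livers. Rpl11 was at 99.2, 95.1, 86.2 and 96.6 FPKM and at 110, 84.9, 90.8 and 96.5 FPKM, in the same order. Both pairs of groups overlapped, and the log2 fold changes of 0.01 (95% interval -0.22 to 0.25) and -0.02 (-0.25 to 0.22) were among the smallest of the family. Mdm2 itself rose, from 7.07 ± 0.997 to 11.7 ± 1.27 FPKM (SD, n = 4 each; log2 fold change 0.72, limma adjusted p = 0.00888), with every METTL3-HKD liver above every METTL3-Flox liver.

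Of the genes mutated in Diamond-Blackfan anemia, an inherited failure of red cell production, 8 were listed for testing. They are Rps7, Rps10, Rps19, Rps24, Rps26, Rpl5, Rpl11 and Rpl35a, of which 0 were called, and their log2 fold changes ran from -0.07 to 0.12. Among the genes with a named role beside translation, 0 of 8 were called, with values from -0.23 to 0.10. Rps6, the substrate of the S6 kinases, was at 255, 248, 233 and 248 FPKM in METTL3-HKD and at 281, 214, 218 and 239 FPKM in METTL3-Flox livers, which overlapped. Rpsa, which doubles as a laminin receptor, had the highest value of these genes, 0.10 ± 0.12 (SE), and Rpl10, required for the last steps of large-subunit maturation, the lowest. Rpl10 was at 238, 241, 260 and 279 FPKM in METTL3-HKD and at 360, 278, 278 and 283 FPKM in METTL3-Flox livers. Its groups overlapped only through METTL3-HKD liver 4, and its log2 fold change was -0.23 ± 0.12 (SE; limma adjusted p = 0.226, exact permutation p = 0.0857, two-sided).

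The named relatives and variants of ribosomal proteins were described beside their parents. Rpl22 and Rpl22l1 had log2 fold changes of -0.05 ± 0.10 and -0.18 ± 0.21 (SE), Rpl7 and Rpl7l1 of -0.02 ± 0.10 and 0.15 ± 0.11, and Rps27l, a p53-inducible relative of Rps27, of -0.07 ± 0.13. In none of these 5 genes did the groups separate. Rps19bp1, a partner of Rps19 that is not a subunit of the ribosome although its symbol meets the rule, was at 12.5 ± 0.913 and 10.6 ± 2.76 FPKM (SD, n = 4 each; limma adjusted p = 0.315).

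In 2 of the 89 genes the groups did not overlap, 1 in each direction, whereas 22.6% of all genes tested had groups that did not overlap, 12.7% higher and 9.95% lower in METTL3-HKD. These counts depend on the scaling, and after scaling to the reads on genes the groups did not overlap for 14 ribosomal protein genes on the higher side and 1 on the lower, against 19.8% and 3.54% of all genes. Rpl10-ps3, a processed copy of Rpl10 at chr9:50344201-50344968, was at 1.29, 1.34, 1.44 and 1.05 FPKM in METTL3-HKD and at 2.11, 1.69, 1.71 and 1.62 FPKM in METTL3-Flox livers. Every METTL3-HKD liver was below every METTL3-Flox liver, and the log2 fold change was -0.45 ± 0.14 (SE; limma adjusted p = 0.0622, exact permutation p = 0.0286, two-sided, the smallest that 4 against 4 allows). The value rests on 15 reads or more per liver, 74 in METTL3-HKD and 84 in METTL3-Flox in all, and part of them may belong to Rpl10 or to another of its 9 copies. It passed the threshold only when protein-coding genes alone were tested.

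The other gene was Rpl3l, the relative of Rpl3 that is used by striated muscle, at chr17:24727820-24736143. It received 15, 4, 35 and 2 reads in METTL3-HKD livers 1 to 4 and 0, 0, 1 and 1 reads in METTL3-Flox livers. All METTL3-HKD livers were above all METTL3-Flox livers, but livers 1 and 3 held most of the reads. The ratio of reads between the groups, relative to library size, was 22.9. It is pooled over the livers of each group and rests mostly on METTL3-HKD livers 1 and 3. With group means of 0.458 and 0.0195 FPKM, Rpl3l reached the mean of 0.1 FPKM required for testing only through METTL3-HKD, the group in which it was high, so its values are a description and no test is given for it, although it is among the 89 genes counted above. The summed level of 10 skeletal muscle genes, a list written after these values were seen, was 78.8, 0.994, 134.6 and 0.562 FPKM in METTL3-HKD and 1.14, 0.854, 0.6003 and 0.606 FPKM in METTL3-Flox livers. It was thus high in the same livers 1 and 3, with 0 of 9 tested genes called and Tnnc2 at 0 in every liver. The part of muscle RNA in the Rpl3l result was not tested. Rpl3 itself, at 107 ± 8.83 and 113 ± 11.3 FPKM (SD, n = 4 each), had a log2 fold change of -0.09 ± 0.10 (SE).

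Of the remaining genes with the smallest p, Rpl9-ps6, a processed copy of Rpl9, was at 23.8, 31.2, 30.8 and 31.6 FPKM in METTL3-HKD and at 25.2, 24.9, 19.3 and 21.7 FPKM in METTL3-Flox livers. The groups overlapped through METTL3-HKD liver 1, and the log2 fold change was 0.36 ± 0.13 (SE; limma adjusted p = 0.0819). It passed the threshold without METTL3-HKD liver 1, with array quality weights and after scaling to the reads on genes. Rpl9-ps6 is 99.8% identical to Rpl9, so part of its reads may belong to Rpl9 or to another copy. Over Rpl9 and all its copies, the log2 fold change was 0.04 ± 0.12 (SE, limma adjusted p = 0.852). Rpl36a-ps1 followed with 0.62 ± 0.28 on 2 or more reads per liver, and on the lower side Rps21, Rpl39 and Rpl28 lay between -0.19 and -0.20.

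Many ribosomal protein genes have near-identical copies elsewhere in the genome, and reads could be given to either. Coding sequences that matched a transcript of another gene over at least 80% of their length at 95% identity or more were taken as copies. On this rule, 75 of 87 gene families had copies, 527 in all. The gene held over 50% of the family's reads in all but 4 families. The exceptions were Rpl17, with 27.1% of the reads of its family, Rpl21 with 34.5%, Rpl24 with 18.99% and Rps10 with 2.36%. Rps10 was listed at 0.51 to 1.10 FPKM, while Rps10-ps2 received 58.9 to 80.7 RPM (reads scaled to the size of the library and not to the length of the gene), so the low listed level of Rps10 goes with reads listed under its copy. Rpl24 was also low, at 0.42 to 1.43 FPKM, but its family as a whole received only 3.4 to 6.0 RPM, so few reads were listed under its copies either. The reason for the low level of Rpl24 was not tested.

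Rps27 and its retrogene Rps27rt are shown in full because a read from the coding sequence cannot be told apart between them. The coding sequences of Rps27 (chr3:90212522-90213651, minus strand) and Rps27rt (chr9:114982366-114982739, minus strand) both have 255 bases, or 84 codons and a stop, with 0 differences. The sequence below is that of both genes, from GENCODE M21 on GRCm38, and capitals are not used because every base is shared.
Rps27 and Rps27rt coding sequence: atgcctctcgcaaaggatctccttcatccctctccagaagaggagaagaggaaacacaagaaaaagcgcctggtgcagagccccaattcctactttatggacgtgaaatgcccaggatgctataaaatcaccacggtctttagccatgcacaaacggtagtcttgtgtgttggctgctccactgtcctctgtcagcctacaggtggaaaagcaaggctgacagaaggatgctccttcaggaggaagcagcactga
Around the annotated starts, the genes part. In the RefSeq windows below, capitals mark bases of a shared run of 38 bases that begins at the annotated start of Rps27rt and continues past the end of the windows, while the bases before it differ.
Rps27, chr3:90213623-90213682, minus strand: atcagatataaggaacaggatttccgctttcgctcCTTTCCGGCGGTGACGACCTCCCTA
Rps27rt, chr9:114982715-114982774, minus strand: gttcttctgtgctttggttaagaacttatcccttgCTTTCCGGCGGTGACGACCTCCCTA

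The reads of this pair moved in opposite directions from liver to liver. Rps27 received 46.8, 136, 87.4 and 127 RPM in METTL3-HKD livers 1 to 4 and 108, 41.3, 53.8 and 136 in METTL3-Flox livers 1 to 4. Rps27rt received 92.2, 24.9, 67.2 and 39.6 RPM in METTL3-HKD and 89.9, 104, 100 and 12.8 in METTL3-Flox livers. Livers with few reads on one gene had many on the other, in both groups. Over all copies, the sum was 139 to 167 RPM in METTL3-HKD and 146 to 198 in METTL3-Flox livers, a range of 1.42-fold against 3.30-fold for Rps27 and 8.14-fold for Rps27rt alone. The log2 fold change was 0.28 (95% interval -0.73 to 1.29) for Rps27, -0.24 (-1.81 to 1.32) for Rps27rt and -0.05 for the family.

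Rpl17 showed the same with Rpl17-ps10, a copy of 99.3% identity. Rpl17 received 45.1, 124, 118 and 42.2 RPM in METTL3-HKD and 57.1, 39.0, 44.5 and 44.3 in METTL3-Flox livers. Rpl17-ps10 received 95.6, 41.8, 46.1 and 139 in METTL3-HKD and 128, 114, 113 and 121 in METTL3-Flox livers. METTL3-HKD livers 2 and 3 were the highest for Rpl17 and the lowest for the copy, and the family as a whole lay between 210 and 281 RPM. The log2 fold change of 0.67 ± 0.37 (SE) for Rpl17, among the highest of the family, became -0.00 over all copies.

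Copies balanced Rps27a little and Rpl7a in part. Rps27a encodes a ribosomal protein fused to ubiquitin, and received 251, 96.2, 95.2 and 248 RPM in METTL3-HKD and 138, 89.2, 102 and 195 in METTL3-Flox livers. METTL3-HKD livers 1 and 4 and METTL3-Flox liver 4 stood high, and the family ranged 2.64-fold against 2.82-fold for the gene. Rpl7a received 50.7, 50.9, 51.3 and 61.5 RPM in METTL3-HKD and 42.3, 42.4, 100.3 and 80.9 in METTL3-Flox livers, where livers 3 and 4 stood apart from 1 and 2. Over all copies its family ranged 1.64-fold, against 2.37-fold for the gene. These genes were named after their values were seen, as were Rpl21, Rpl24, Rps12 and Rps12-ps3. With the copies summed into families, a calculation added after the values were seen, 83 families were tested. Of these, 0 were called against 16.3% of all 16372 entries, and the median log2 fold change was -0.02. An unadjusted p under 0.05 was found for 1 (32.4% of all entries). It was Rpl3l, which had no copies and, as described above, has no valid test.

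**Figure D3:**
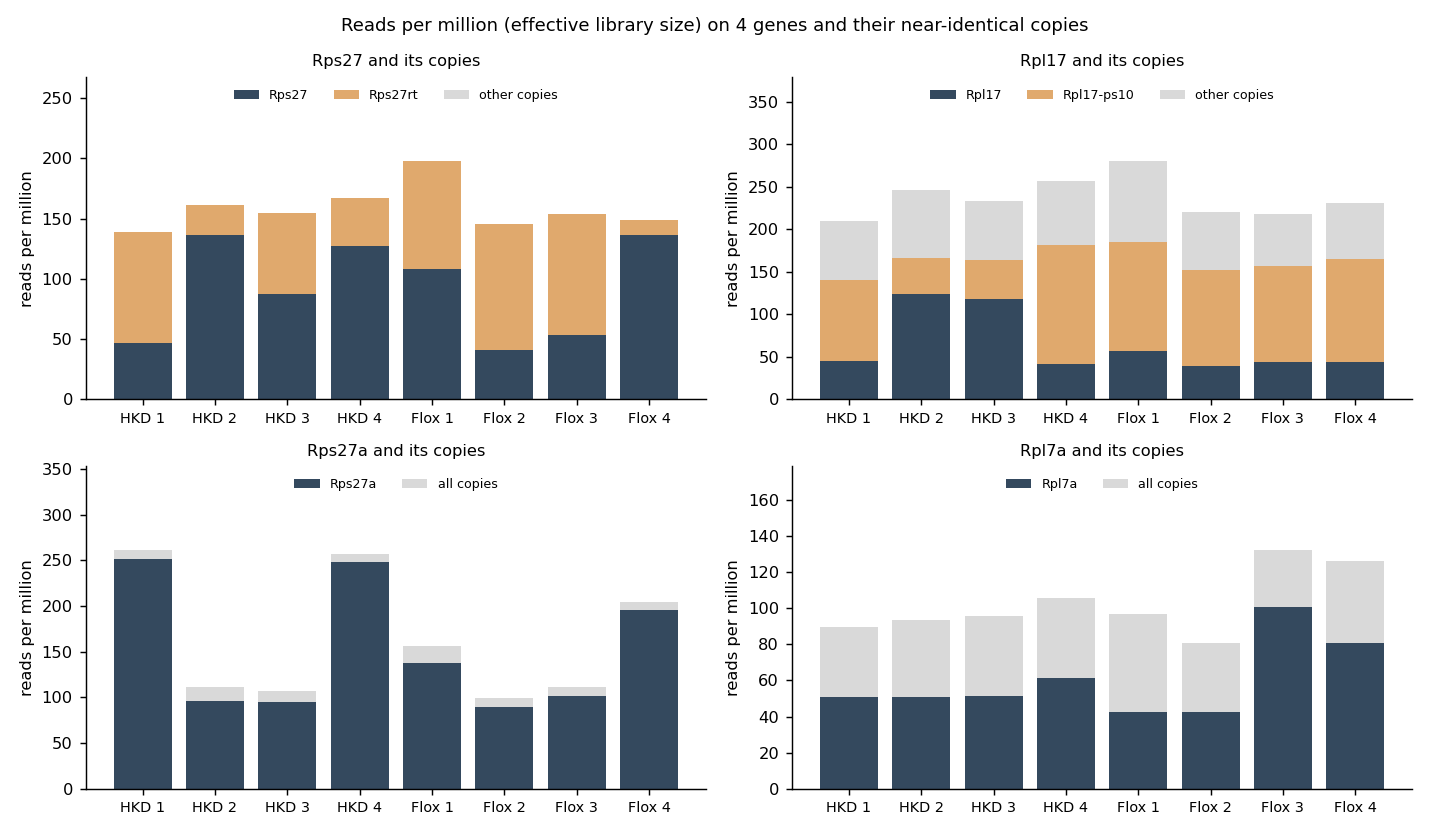
RPM in each of the 8 livers for Rps27, Rpl17, Rps27a and Rpl7a (dark bars) with their near-identical copies stacked above (orange for Rps27rt and Rpl17-ps10, grey for other copies). The totals of Rps27 and Rpl17 vary less between livers than either gene of the pair, whereas the total of Rps27a varies nearly as much as the gene and that of Rpl7a lies between, at 1.64-fold against 2.37-fold.

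With the deposited scaling, METTL3-Flox liver 1 stood apart for most of the family. The median coefficient of variation over the 85 genes averaging 1 FPKM or more was 7.58% in METTL3-HKD and 13.9% in METTL3-Flox livers. METTL3-Flox liver 1 was the highest of the 8 livers for 71 of the 85 genes, and without it the METTL3-Flox value was 6.41%. The median deviation from the mean of the 8 livers, on the log2 scale, was -0.05, -0.02, -0.06 and 0.08 in METTL3-HKD livers 1 to 4 and 0.27, -0.14, -0.07 and -0.00 in METTL3-Flox livers 1 to 4. Without METTL3-Flox liver 1, the median log2 fold change of the family was 0.07 and 65 of 89 values were positive, with 0 genes called. That liver also had the lowest scaling factor, 0.835 against 0.894 to 1.18 in the others. After scaling to the reads on genes, its median deviation was 0.01 and it was the highest for 5 of the 85 genes. METTL3-HKD livers 1 and 2 were then the highest for 32 and 35. The pattern was not particular to the cytosolic ribosome. With the deposited scaling, METTL3-Flox liver 1 was also the highest for 49 of 77 mitochondrial ribosomal protein genes, with a median deviation of 0.22. After scaling to the reads on genes, that deviation was -0.04. The part of the scaling in the high values of METTL3-Flox liver 1 was not tested.

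The deposited FPKM were scaled between libraries, and another scaling moves the whole family. Scaling to the reads on genes shifted all tested genes up by a median of 0.20 on the log2 scale. The ribosomal protein genes then had a median of 0.19, equal to the 0.19 of all genes, with 85 of 89 values positive (67.4% of all genes) and 1 gene, Rpl9-ps6, called against 16.1% of all genes, and 25 had an unadjusted p under 0.05 (33.3% of all genes). This scaling multiplies all genes of a liver by the same factor. It could therefore hardly move the family relative to the median of all genes. Without any scaling factor, the ribosomal protein genes took 2.05%, 2.02%, 1.74% and 1.91% of the reads on genes in METTL3-HKD livers and 1.79%, 1.53%, 1.61% and 1.80% in METTL3-Flox livers. These shares overlapped between the groups through METTL3-HKD liver 3.

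**Figure D4:**
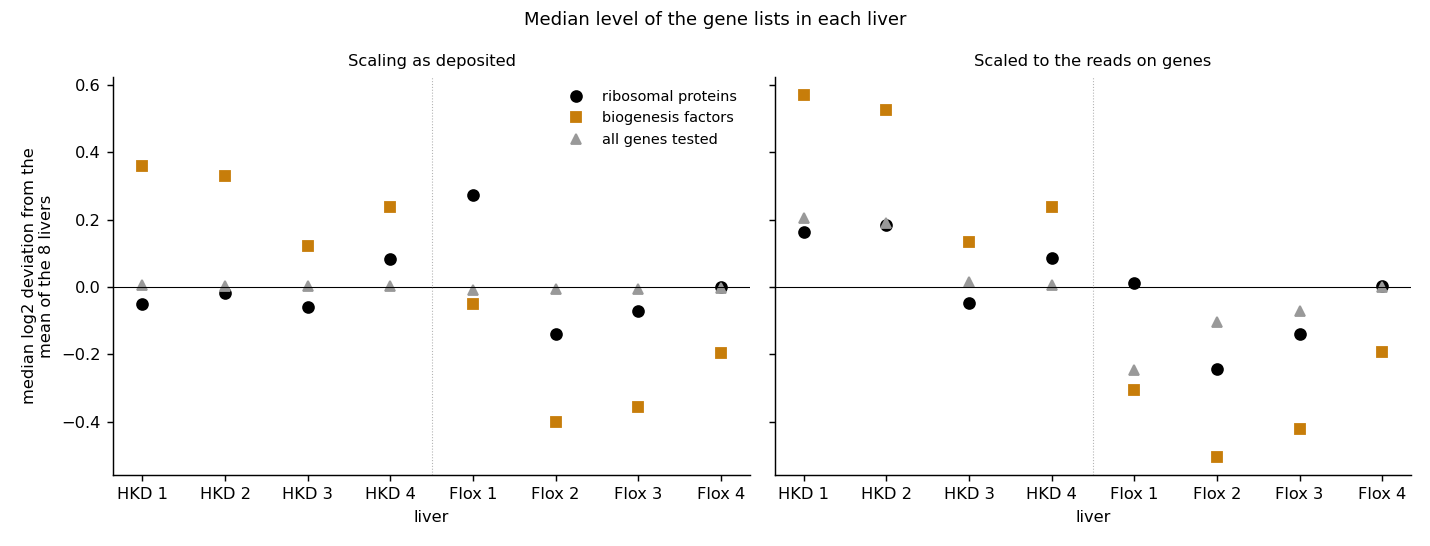
Median log2 deviation from the mean of the 8 livers for the 85 more abundant ribosomal protein genes (circles), the biogenesis factors (squares) and all genes tested (triangles), with the deposited scaling on the left and scaling to the reads on genes on the right. On the left, METTL3-Flox liver 1 is the highest for ribosomal proteins (0.27), and biogenesis factors lie above 0 in all 4 METTL3-HKD livers and below 0 in all 4 METTL3-Flox livers. On the right, METTL3-Flox liver 1 lies at 0.01 for ribosomal proteins.

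Many of the genes whose products build ribosomes rose in METTL3-HKD livers. Of 85 ribosome biogenesis factors tested, 49 rose in METTL3-HKD livers and 0 fell (9.05% of all genes rose), with a median log2 fold change of 0.52 and 81 positive values. The groups did not overlap for 56 of them, all higher in METTL3-HKD, against 12.7% of all genes in that direction, and 6 of the called had a log2 fold change of at least 1 (4.7% of all genes). After scaling to the reads on genes, 68 were called higher (13.8% of all genes), 19 of them with a log2 fold change of at least 1 (6.22%), and the median was 0.73. Rrp12, an export and processing factor, was at 4.94, 4.54, 3.51 and 3.501 FPKM in METTL3-HKD and at 1.74, 1.18, 1.29 and 1.55 FPKM in METTL3-Flox livers (log2 fold change 1.45 ± 0.17 SE, limma adjusted p = 0.00281). Every METTL3-HKD liver was above every METTL3-Flox liver. Tsr1, a factor of the maturing small subunit whose gene overlaps Srr, rose by 1.19 ± 0.15 (limma adjusted p = 0.00367). Of factors chosen after their values were seen, Nop56, a core protein of methylation-guide particles that overlaps Idh3b, rose by 1.46 ± 0.27, nucleolin (Ncl) by 0.57 ± 0.11 and nucleophosmin (Npm1) by 0.52 ± 0.11 (limma adjusted p = 0.0111, 0.0126 and 0.0176). Ubtf, which activates RNA polymerase I, and Imp3 were the lowest by p, at -0.16 ± 0.09 and -0.13 ± 0.11 (limma adjusted p = 0.270 and 0.455). The count depends on single livers: 30, 32, 31 and 25 factors were called without METTL3-HKD liver 1, METTL3-HKD liver 2, METTL3-Flox liver 2 and METTL3-Flox liver 3. Neutrophil, cholangiocyte and erythroid markers were also higher in METTL3-HKD livers, and their part in this result was not tested.

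Translation factors lay between both lists. Of 39 tested, 8 rose (9.05% of all genes) and 0 fell (6.63%), and the median log2 fold change was 0.16. Eif4e, which binds the mRNA cap, was at 19.04, 19.2, 13.7 and 15.7 FPKM in METTL3-HKD and at 10.3, 8.60, 8.51 and 9.79 FPKM in METTL3-Flox livers, with no overlap (log2 fold change 0.85 ± 0.13 SE, limma adjusted p = 0.00647). Eif3j1, an initiation factor subunit whose gene overlaps Spg11, rose by 0.58 ± 0.09 (limma adjusted p = 0.00663). Eef2, the translocase and a TOP mRNA itself, and Eif3k had the smallest p on the lower side, at -0.25 ± 0.13 and -0.12 ± 0.08 (limma adjusted p = 0.210 and 0.320). Only 2 to 5 of the factors were called when METTL3-HKD liver 1, 2 or 4 or METTL3-Flox liver 2, 3 or 4 was left out.

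Of 77 mitochondrial ribosomal protein genes tested, 0 rose and 3 fell (6.63% of all genes fell), with a median of -0.07. The 3 were Mrps36 (log2 fold change -0.60 ± 0.12 SE), Mrpl14 (-0.39 ± 0.09) and Mrpl41 (-0.34 ± 0.10), with limma adjusted p = 0.0129, 0.0276 and 0.0479. Mrpl14 overlaps Tmem63b, and Mrps36 is counted by some as a subunit of a mitochondrial dehydrogenase complex. Mrpl21 and Mrpl19 had the smallest p on the higher side (0.27 and 0.36, limma adjusted p = 0.0614 and 0.0899) and overlap Ighmbp2 and Gcfc2. Leaving out METTL3-HKD liver 1 or 4 or METTL3-Flox liver 3 or 4 left 1 gene called lower, and 3 were called higher without METTL3-Flox liver 1. The differences between these lists were not tested.

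**Figure D5:**
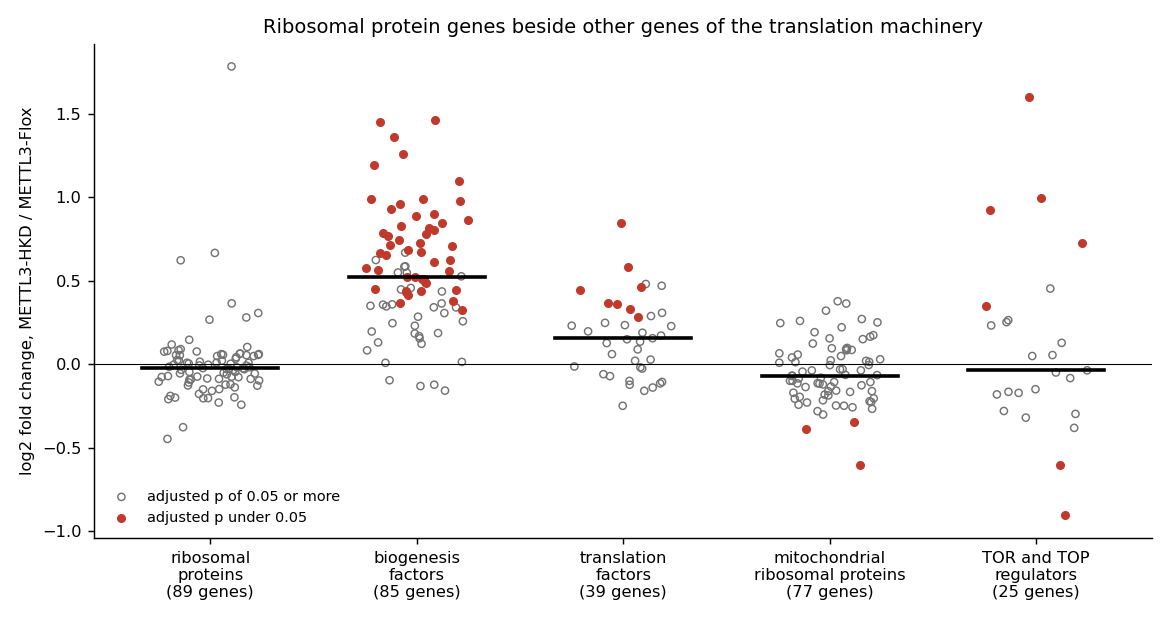
Log2 fold change (METTL3-HKD over METTL3-Flox) of each tested gene in 5 lists, with filled points for an adjusted p under 0.05 and a bar at the median. The ribosomal proteins cluster at 0 with no filled point, whereas 49 of 85 biogenesis factors are filled and all of these lie above 0.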

How the data were processed

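RNA sequencing of livers from 4 METTL3-HKD and 4 METTL3-Flox mice was used, grouped by the sample labels. The authors deposited FPKM per gene for 54532 genes, with gene lengths; the submitters' notes name GRCm38 and mm10, and the aligner, the counter, the strand setting and the annotation are not given in the sources used here. Multiplying FPKM by length and by a library size found for each liver returned whole reads (within 0.05 of a read) for 100% of non-zero values, so reads were recovered, and the median-of-ratios factor of 1.01 in every liver shows that the deposited values had already been scaled between libraries. RPM values are such reads relative to that library size.

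The 16645 genes averaging 0.1 FPKM or more were compared with limma 3.58.1 (lmFit, eBayes with trend) in R 4.3.3 on log2(FPKM + 0.1), so that changes of low genes are understated, and were called at a Benjamini-Hochberg adjusted p under 0.05. Permutation tests of single genes enumerated 70 arrangements (scipy 1.17.1, Python 3.11.15). On data simulated for this comparison over 16645 genes, 160 of 200 genes changed by 2 log2 units were called, 125 of 130 with a mean of at least 50 reads, along with 10 unchanged genes. The simulation gave every gene the same spread beyond counting error rather than its own, and smaller changes were not simulated. Copies were found with blastn 2.17.0 of the longest coding sequence against GENCODE M21 transcripts. Promoters came from RefSeq (GRCm38.p6). Alternatives were voom on the recovered reads, protein-coding genes only, a replicate-number block, array quality weights, no trend, scaling to the reads on genes or by median of ratios, a mean of 1 FPKM or no minimum, 1 FPKM as pseudocount, omission of each liver and, added later, copies summed into families.

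The ribosomal protein genes and the other lists were chosen with earlier results of these data known. Genes named are Mettl3, members of the role lists, the 5 higher and 5 lower ribosomal protein genes with the smallest p, the 5 highest and 3 lowest by mean, parents of variants, and the 2 higher and 2 lower genes of each other list with the smallest p. Rpl7a, Rpl21, Rpl24, Rps12, Rps12-ps3, Nop56, Ncl, Npm1, Myc, Sesn2, Larp4, Larp1, Mtor, Mrpl41, Fau and Rack1 were named after their values were seen. Of the ribosomal protein genes, Rpl35, Rps25, Rpl18 and Rps10 overlap another named gene, whose reads cannot be separated here. Protein sequences were not used, and some genes are not reported here.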

Additional observations from a re-analysis of the deposited data

Results flagged for a closer look

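Within-group values that stood apart were sought by the gap between the highest or lowest liver and its nearest neighbour, relative to the range of the 4 livers. Of 102 groups examined, 12 were marked, where chance marks about 1 in 20. METTL3-Flox liver 1 was set apart as the highest for Rps7 (168 FPKM), Rps24 (42.6 FPKM), Rpl10 (360 FPKM) and Rpl26 (194 FPKM). METTL3-HKD liver 4 was the highest for Rpl38 (155 FPKM), Rpl7a (34.5 FPKM) and the summed FPKM of all ribosomal protein genes (11909 FPKM). METTL3-HKD liver 1 was the lowest for Rpl9-ps6 (23.8 FPKM), METTL3-HKD liver 3 the lowest for Rplp2 (66.0 FPKM), and METTL3-Flox liver 4 the lowest for Rps27rt (34.2 FPKM). For Rpl39l and Rpl9-ps1, METTL3-Flox liver 2 (0.0745 FPKM) and METTL3-HKD liver 3 (0.0961 FPKM) were the only livers of their group above 0, at 1 read each.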

How the results depend on the processing

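The count of 0 ribosomal protein genes called higher became 1 after scaling to the reads on genes and with array quality weights (Rpl9-ps6 in both) and ran from 0 to 1 over the omission of single livers (Rpl9-ps6 without METTL3-HKD liver 1, and Rpl3l, a gene with no valid test, without METTL3-HKD liver 4). The count called lower became 1 when protein-coding genes alone were tested (Rpl10-ps3). Scaling to the reads on genes moved the median log2 fold change of the family to 0.19, that of all genes likewise, and raised the translation factors called higher to 15, the mitochondrial ribosomal protein genes called higher to 8 and lowered those called lower to 1. Without the mean-variance trend, 3 translation factors were higher and 1 mitochondrial gene lower. Mitochondrial genes called higher numbered 1 at a minimum mean of 1 FPKM and 2 with array quality weights. Over the omission of single livers, each with 7 livers left, 25 to 57 biogenesis factors and 2 to 9 translation factors were called higher, 0 to 3 mitochondrial genes higher and 1 to 2 lower, and the median of the ribosomal protein genes ran from -0.06 to 0.07. The replicate numbers do not pair the livers (correlations of the deviations of same-numbered livers from -0.08 to 0.07). With the replicate number as a block, 4 translation factors were higher, 1 mitochondrial gene lower, 37 biogenesis factors higher and 0 ribosomal protein genes called. Of 1492 values of 79 named genes under 19 alternatives, 1316 kept direction and side of the threshold, 61 lost and 10 gained the threshold, and 105 changed sign while not called either way, 30 of them under scaling to the reads on genes. Of values called in either, 0 changed sign. Apart from the constructions named, the cause of these moves was not tested. Values of genes with few reads, such as Rpl3l, Rpl36a-ps1 and Rpl24, are limited by counting error.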

Other observations

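Regulators of the ribosomal protein mRNAs were listed separately. Of 25 genes of TOR signalling and TOP mRNA control, 5 rose in METTL3-HKD livers (9.05% of all genes rose) and 2 fell (6.63%), and the median log2 fold change was -0.04. Mtor and Larp1, which couples TOR signalling to TOP mRNAs, had log2 fold changes of -0.08 ± 0.16 and -0.04 ± 0.12 (SE) and were not called. Deptor and Sesn1, both inhibitors of TOR signalling, fell, by 0.91 ± 0.26 and 0.61 ± 0.15 on the log2 scale (limma adjusted p = 0.0454 and 0.0294), whereas Sesn2, a stress-induced inhibitor of the same family as Sesn1, rose by 1.00 ± 0.22 (limma adjusted p = 0.0205). Deptor was at 5.47, 7.59, 11.1 and 8.86 FPKM in METTL3-HKD and at 9.84, 20.1, 17.2 and 15.2 FPKM in METTL3-Flox livers, and its groups overlapped through METTL3-HKD liver 3 and METTL3-Flox liver 1. Both Deptor and Sesn1 missed the threshold after scaling to the reads on genes. Myc, which activates genes for ribosome production, was at 9.06, 5.72, 3.63 and 4.34 FPKM in METTL3-HKD and at 2.07, 2.41, 1.36 and 1.21 FPKM in METTL3-Flox livers, with no overlap (log2 fold change 1.60 ± 0.31, limma adjusted p = 0.0130). Rps6ka3, a kinase of Rps6, and Larp4 rose by 0.93 ± 0.16 and 0.35 ± 0.09 (limma adjusted p = 0.00903 and 0.0334).

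Of 9 further proteins that sit on the ribosome, 1 rose (9.05% of all genes rose) and 1 fell (6.63%). Serbp1 and Habp4 are related proteins that occupy the mRNA channel of idle ribosomes. Habp4 was at 11.4, 12.8, 12.6 and 12.5 FPKM in METTL3-HKD and at 18.3, 19.99, 19.5 and 20.7 FPKM in METTL3-Flox livers, with no overlap (log2 fold change -0.67 ± 0.08 SE, limma adjusted p = 0.00339). Serbp1 was at 12.2, 11.2, 11.2 and 11.3 FPKM in METTL3-HKD and at 10.2, 9.31, 9.15 and 9.08 FPKM in METTL3-Flox livers, again with no overlap (0.28 ± 0.08, limma adjusted p = 0.0460), and missed the threshold under 10 of 19 alternatives. Ccdc124, another factor of idle ribosomes, and Btf3, part of the complex that meets nascent chains, had values of -0.16 ± 0.13 and 0.12 ± 0.10 and were not called. Fau and Rack1, ribosomal proteins whose symbols do not meet the rule, had log2 fold changes of -0.03 ± 0.12 and -0.00 ± 0.10, of which 0 were called. Rack1 overlaps Trim41.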
